A study of Canis lupus familiaris with 6 samples.

Results

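The genes examined here, 6 in number, surround the editing of apolipoprotein B messenger RNA in MDCKII cells, an epithelial line from dog kidney. They are the editing enzyme gene APOBEC1, its RNA-binding partners A1CF, RBM47 and SYNCRIP, the substrate gene APOB, and MTTP, whose product loads lipid onto apolipoprotein B. A gene was followed through the probe sets of the array to which the platform annotation gave that symbol alone. This found 9 probe sets for 5 of the 6 genes, of 42924 probe sets and 15115 named genes in all. APOB had 0 such probe sets, and its transcript level was not analysed here. The set was chosen by the 3D minus 2D difference of APOBEC1, which stood among the largest in the series, and the other 5 genes joined it by their known roles. The differences of the members are therefore a description, without a test.

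APOBEC1 is a cytidine deaminase that turns a glutamine codon of the apolipoprotein B transcript into a stop codon. The truncated protein made from the edited transcript is the form that enterocytes put into chylomicrons, while the full-length protein is that of very low density lipoprotein. In dogs, as in mice and rats, the liver edits this transcript too. APOBEC1 needs an RNA-binding partner to dock on the transcript, and A1CF and RBM47 have each been shown to serve as one. SYNCRIP, an hnRNP protein related to A1CF, was found as an APOBEC1-binding protein that modulates editing.

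Cells were grown for 36 h after plating, either as a flat monolayer on plastic (2D, 3 arrays) or as cysts on Matrigel, a basement membrane extract (3D, 3 arrays). For 3D, 100 µl of Matrigel coated a 60 mm dish and the medium held 2% Matrigel. Both groups are the same MDCKII line without a transgene or drug in the labels, and the labels number the replicates of each group 1 to 3 and call them biological. The design asks which genes are raised when cells build cysts, as candidates for lumen formation. Values are log2 signals of a 1-colour Affymetrix array, and a single line in 2 culture forms limits what they stand for.

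The values lie on 2 scales. Arrays of replicates 2 and 3 had medians of 7.06 to 7.08 and correlated at 0.982 to 0.997 over probe sets, whereas the replicate 1 arrays had medians of 5.42 and 5.26 and correlated with the others at 0.861 to 0.872. The replicate 1 arrays reached down to -3.32, against minima of 3.39 to 3.44 on the others, and all of their values below 1 lay within 0.006 of the log2 of a signal rounded to 1 decimal. The size of a replicate 1 difference can therefore not be compared with one on the other scale. The groups were therefore compared within each scale, with 2 arrays per group for replicates 2 and 3 and a single pair for replicate 1. The 7 measured kidney epithelial markers ranged widely by position within the 4 arrays of replicates 2 and 3. EPCAM, KRT8 and KRT18, which many epithelia express, were the brightest, with KRT8 at the 98.98 to 99.3 percentile. CDH1, PAX8 and CDH16 lay between the 73.0 and 80.3 percentiles, and PAX2, a factor of the developing kidney, lay between the 49.5 and 53.6 percentiles. By limma 0 of the 7 passed, with 0 at an unadjusted p under 0.05, beside 10072 of all 42924 probe sets. Of the markers of other cell types, 0 of 7 fibroblast, 0 of 5 endothelial, 0 of 5 leukocyte and 0 of 5 hepatocyte genes passed by limma. At an unadjusted p under 0.05 there was 1 of them, the leukocyte gene CD3E (difference 0.34). Of 5 enterocyte markers 1 passed, CDH17, described with the pathway genes.

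APOBEC1 was 5.98-fold higher in 3D. Its single probe set, CfaAffx.21464.1.S1_at, read 9.06 and 9.08 in 2D and 11.62 and 11.68 in 3D on replicates 2 and 3. The group means were 9.07 ± 0.0141 in 2D and 11.65 ± 0.0424 in 3D (SD, n = 2 arrays), and the log2 difference was 2.58 (SE 0.0981). The groups did not overlap, and the gap of 2.54 between the highest 2D and the lowest 3D value was far wider than the spread within either group. This separation is a description only, since the gene was chosen by its difference in this contrast. On the replicate 1 scale the 2D array read 6.20 and the 3D array 10.13, a difference of 3.93. The difference on replicates 2 and 3 ranked 28 from the top among 42924 probe sets, and that in replicate 1 ranked 111. By position within each array, the probe set moved from the 77.9 percentile at its lowest 2D reading to the 95.9 percentile at its highest 3D reading. In a bulk sample a larger share of expressing cells and more RNA per cell cannot be told apart.

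**Figure D1:**
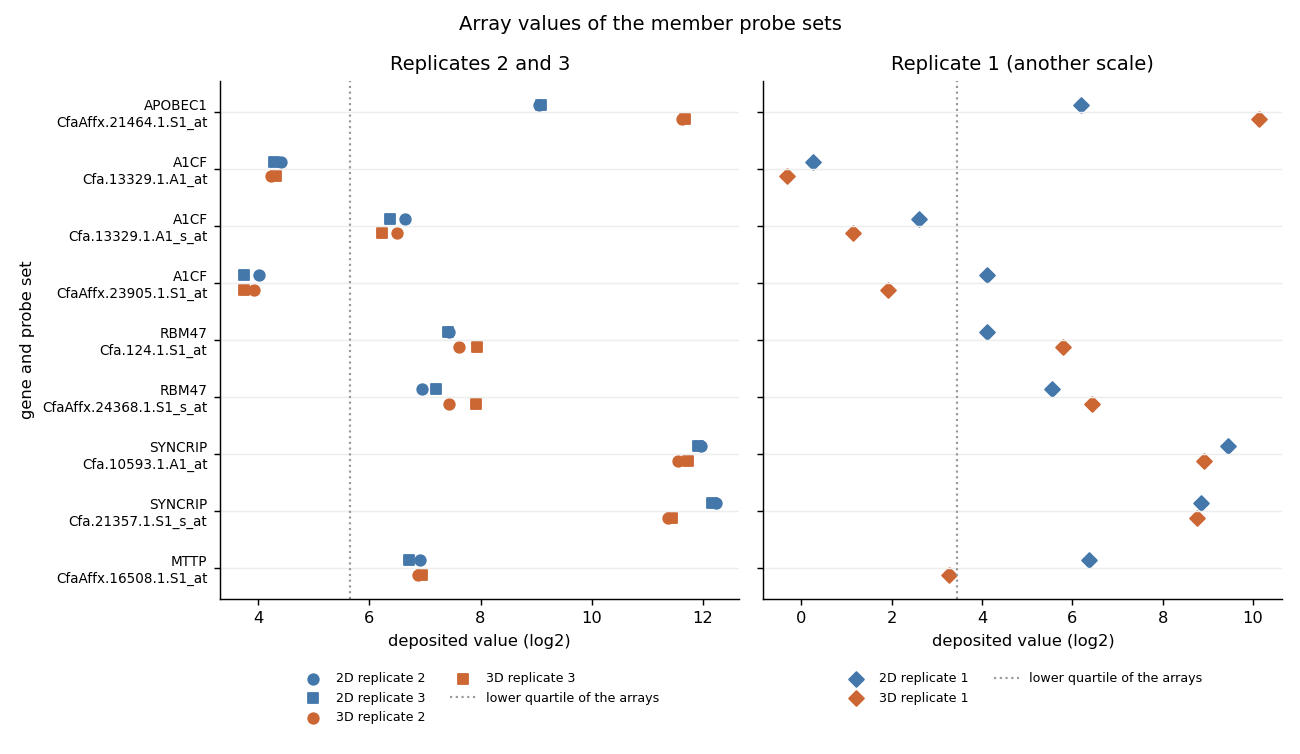
Deposited log2 values (horizontal axis) of the 9 member probe sets (vertical axis), with circles and squares for replicates 2 and 3 on the left and diamonds for replicate 1, on another scale, on the right; blue is 2D, orange is 3D, and the dotted line is the mean lower quartile of the arrays shown. APOBEC1 moves from about 9.07 to 11.65 on the left, while 2 of the 3 A1CF probe sets stay left of the quartile line.

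Of the partners that can dock APOBEC1 on its transcript, RBM47 read higher in 3D on both of its probe sets, though neither passed the test. RBM47 is also a widely expressed epithelial regulator of splicing and mRNA stability. Probe set Cfa.124.1.S1_at read 7.44 and 7.41 in 2D and 7.62 and 7.94 in 3D, a log2 difference of 0.36 (SE 0.133, n = 2 arrays per group). The groups did not overlap, but the gap of 0.18 between them was narrower than the distance between the 3D arrays. Probe set CfaAffx.24368.1.S1_s_at read 6.94 and 7.20 in 2D and 7.44 and 7.92 in 3D, a difference of 0.61 (SE 0.184). Here too the groups did not overlap, with a gap of 0.24 between them. In replicate 1 the same probe sets differed by 1.68 and 0.87, so that each was higher in 3D on both scales.

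A1CF, the APOBEC1 complementation factor first purified as the partner of the enzyme, gave low readings in both culture forms. Probe set Cfa.13329.1.A1_at read 4.42 and 4.29 in 2D and 4.24 and 4.33 in 3D, and CfaAffx.23905.1.S1_at read 4.01 and 3.74 in 2D and 3.92 and 3.75 in 3D. All of these values lie below the lower quartiles of the arrays, which were 5.64 to 5.67, and the groups overlapped on both probe sets. The third, Cfa.13329.1.A1_s_at, read 6.65 and 6.37 in 2D and 6.50 and 6.22 in 3D. The log2 differences of the 3 probe sets were -0.07 (SE 0.107), -0.04 (SE 0.133) and -0.15 (SE 0.149), each about as large as its SE or smaller. In replicate 1 they were -0.58, -2.19 and -1.47, but all 3 of the 3D readings (-0.32, 1.93 and 1.14) were under 3.38, the lower quartile on that array, where the size of a difference is poorly known. The table carries no detection calls, so whether A1CF is transcribed in these cells cannot be read from it.

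SYNCRIP read lower in 3D, by amounts that differed between its 2 probe sets. Probe set Cfa.21357.1.S1_s_at read 12.23 and 12.16 in 2D and 11.38 and 11.44 in 3D, a log2 difference of -0.79 (SE 0.0999), or 1.72-fold lower. The groups were separated by 0.72. Probe set Cfa.10593.1.A1_at read 11.97 and 11.92 in 2D and 11.56 and 11.73 in 3D, a difference of -0.30 (SE 0.109), again without overlap. Both read at or above the 94.8 percentile on each of these arrays, far above the lower quartiles. In replicate 1 the differences were -0.10 and -0.53, lower in 3D on both probe sets.

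MTTP encodes the large subunit of the microsomal triglyceride transfer protein, which lipidates apolipoprotein B in the endoplasmic reticulum. Its probe set CfaAffx.16508.1.S1_at read 6.91 and 6.72 in 2D and 6.87 and 6.94 in 3D, a log2 difference of 0.09 (SE 0.113), and the groups overlapped. In replicate 1 it read 6.38 in 2D and 3.26 in 3D, a difference of -3.12 that ranked 834 from the bottom of 42924 probe sets. That 3D reading, too, was under the 3.38 mark. MTTP was the only member whose sign differed between the scales, and this disagreement was not tested, with 1 array per group in replicate 1.

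**Figure D2:**
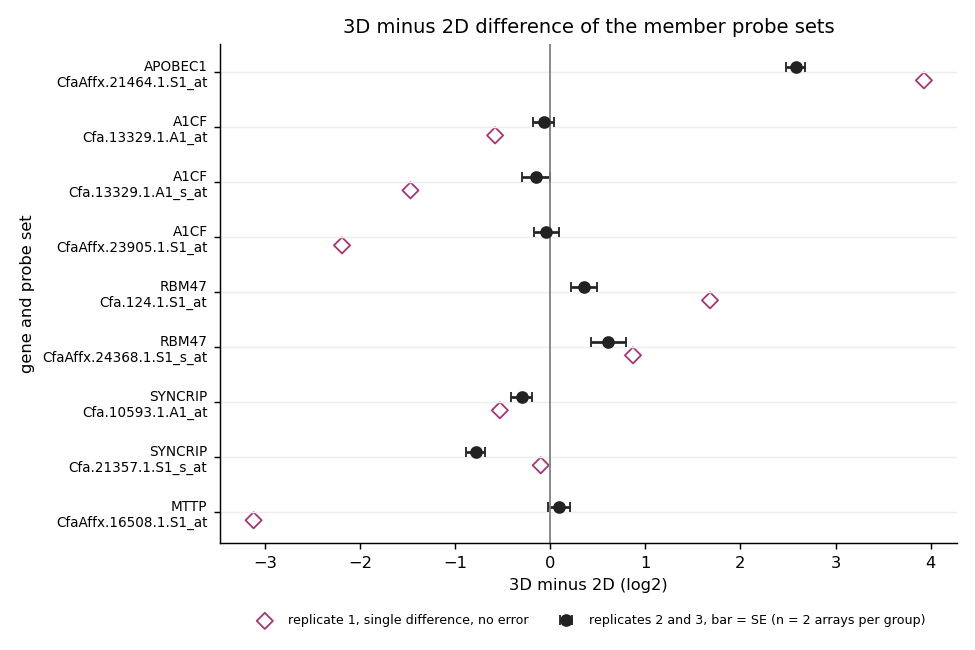
3D minus 2D differences on the log2 scale (horizontal axis) for the 9 member probe sets (vertical axis), as filled circles with the SE for replicates 2 and 3 (n = 2 arrays per group) and as open diamonds for the single replicate 1 pair, which has no error. APOBEC1 lies at 2.58 and 3.93, both RBM47 probe sets lie right of 0 and both SYNCRIP probe sets left of it on either scale, and MTTP lies at 0.09 and -3.12.

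Taken as a set, 2 of the 9 member probe sets passed a limma adjusted p of 0.05 on replicates 2 and 3, APOBEC1 higher and 1 of SYNCRIP lower. Among all probe sets 6.61% passed, 3.65% higher and 2.96% lower. Nothing is read from the members' count, since APOBEC1 entered the set for its difference in this contrast. The groups did not overlap for 5 of the 9 (APOBEC1, both of RBM47 and both of SYNCRIP), against 51.8% of all probe sets, which is close to the members' share. The sign in replicate 1 was the same for 8 of the 9, against 55.1% of all probe sets. Nothing is read from this count either, since the probe sets of a gene are not independent. The 8 include all 3 of A1CF, whose differences were about as large as their SE or smaller, and 2 each of RBM47 and SYNCRIP. Leaving out any 1 of the 4 arrays, which leaves an arm of 1 array assumed to vary like the other, left 0 of 42924 probe sets past the threshold, both member calls included, with 4683 to 10892 at an unadjusted limma p under 0.05. The APOBEC1 difference itself then ranged from 2.55 to 2.61, and that of the SYNCRIP probe set from -0.82 to -0.75.

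Control probe sets were set beside these differences. The poly-A spike-in controls averaged 8.23 and 8.27 on the 2D arrays of replicates 2 and 3 and 9.09 and 8.35 on the 3D arrays, so that 3D replicate 2 stood apart. APOBEC1 read 11.62 on that array and 11.68 on the other 3D array. The hybridization controls averaged 10.79 and 10.86 in 2D and 11.16 and 11.03 in 3D, so that both 3D arrays read above both 2D arrays. On the replicate 1 scale these controls averaged 10.98 in 2D and 11.02 in 3D. The 3' minus 5' difference of 1 GAPDH control pair was 0.20 and 0.16 in 2D and 0.31 and 0.40 in 3D, and that of another was 0.14 and 0.13 in 2D and 0.16 and 0.12 in 3D. That of actin was 0.71 and 0.89 in 2D and 0.57 and 0.76 in 3D. On the replicate 1 scale the spike-ins averaged 6.83 in 2D and 7.52 in 3D, the same GAPDH pairs gave 1.67 and 0.52 in 2D and 1.47 and 0.50 in 3D, and actin gave 2.17 in 2D and 2.90 in 3D. Actin was thus higher in 3D in replicate 1 and lower in 3D on the mean of the other arrays. The part of these in the members' differences was not tested.

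The genes whose profile lay nearest to APOBEC1 stepped up by 2.16 to 2.72 on the log2 scale from 2D to 3D. Such a step follows from how they were chosen, on these same arrays, and is not a separate result. Nearness was the Euclidean distance between log2 values over the 4 arrays of replicates 2 and 3, each profile centred on its own mean, among 14541 other named genes, whose median distance was 2.59. RLBP1, which encodes a retinaldehyde-binding protein, was nearest at 0.135. It read 6.47 and 6.49 in 2D and 8.92 and 9.17 in 3D. TEX26 followed at 0.353, the tetraspanin gene TSPAN1 at 0.360 and PPP1R3C, which targets protein phosphatase 1 to glycogen, at 0.454. ENOSF1, at 0.541, and the synaptotagmin gene SYT13, at 0.559, were next. TEX26 and ENOSF1 had 2D means of 4.69 and 4.76, under the lower quartiles, which makes the size of their steps uncertain, and the second ENOSF1 probe set differed by 0.30 only. In replicate 1 the differences of the probe sets compared ran from 0.68 for SYT13 to 2.45 for TEX26, beside the 3.93 of APOBEC1. Further probe sets of PPP1R3C, TSPAN1, ENOSF1 and RLBP1 gave 3.81, 3.49, 3.38 and 1.42 there.

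**Figure D3:**
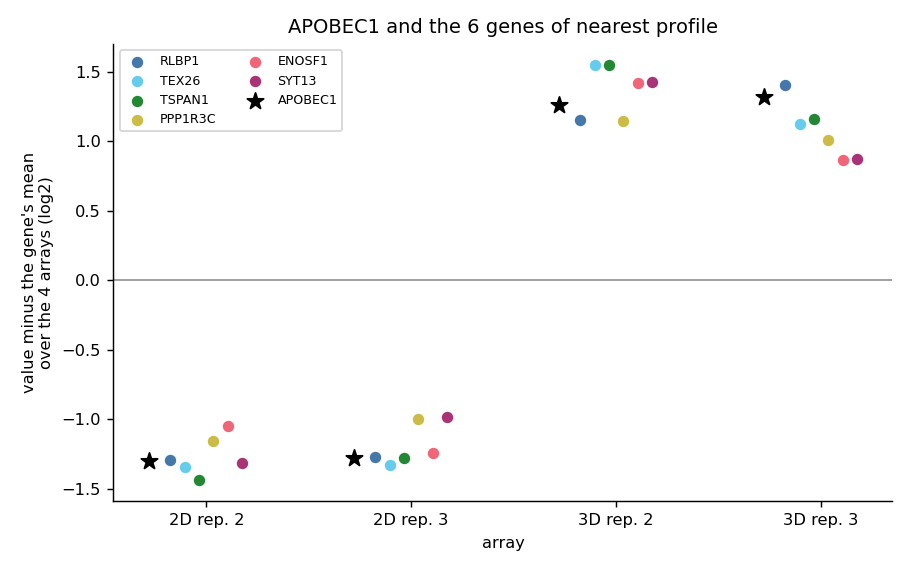
Log2 values of APOBEC1 (stars) and of the 6 genes nearest to it (coloured circles) on the 4 arrays of replicates 2 and 3 (horizontal axis), each with its own mean over the 4 arrays subtracted (vertical axis). All 7 genes lie below 0 on both 2D arrays and above 0 on both 3D arrays, which follows from choosing the 6 by nearness on these arrays. The 2 readings of APOBEC1 within a group nearly coincide.

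Of 10 other measured genes of the APOBEC family, the cytidine deaminases and the adenosine deaminases of RNA, 0 passed the limma test. The gene ADAT1, at -0.31, was the 1 with an unadjusted limma p under 0.05, beside 10072 of all 42924 probe sets. Their log2 differences ran from -0.31 to 0.21, with a median of -0.09 against -0.01 over all genes. Among all 15115 genes, each taken by its probe set of highest mean, 7.29% passed, 4.2% higher and 3.09% lower. ADAR, the main adenosine-to-inosine editing enzyme, read 7.76 and 7.80 in 2D and the same 7.76 and 7.80 in 3D. CDADC1 read 9.33 and 9.24 in 2D and 8.76 and 9.35 in 3D (difference -0.23, SE 0.197, limma adjusted p = 0.561).

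Among 16 measured RNA-binding relatives and reported partners of the APOBEC1 complex, 1 fell, 0 rose and 15 did not pass. The share that passed was 6.25%, beside 7.29% of all genes, and the median difference was -0.11. An unadjusted limma p under 0.05 was found for 2 of the 16, beside 10072 of all 42924 probe sets. HNRNPAB, an hnRNP first isolated in one of its forms as an APOBEC1-binding protein, read 13.06 and 13.10 in 2D and 12.48 and 12.46 in 3D. It fell by 0.61 (SE 0.0972, limma adjusted p = 0.0250), by 0.83 on its second probe set (limma adjusted p = 0.0181), and the replicate 1 difference was -1.12. HNRNPR, the closest paralog of SYNCRIP, had a difference of -0.17 that did not pass (SE 0.117, limma adjusted p = 0.472). It was named after its value had been seen.

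Of 39 measured genes that assemble, export and degrade apolipoprotein B particles, 1 rose, 2 fell and 36 did not pass, with a median of 0.03. The share that passed was 7.69%, close to the 7.29% of all genes. An unadjusted limma p under 0.05 was found for 7 of the 39, beside 10072 of all 42924 probe sets. DGAT2, which makes triglyceride, read 7.11 and 7.19 in 2D and 8.43 and 8.07 in 3D and rose by 1.10 (SE 0.143, limma adjusted p = 0.0161). It did so on 1 of its 4 probe sets, the others differing by 0.05 to 0.09, and averaging all 4 gave 0.33, short of the threshold (limma adjusted p = 0.128). The chaperone genes HSPA5 (-0.74, SE 0.110, limma adjusted p = 0.0207) and HSP90B1 (-0.68, SE 0.109, limma adjusted p = 0.0255) fell, and both serve many secreted proteins besides apolipoprotein B. P4HB, the protein disulfide isomerase that forms the small subunit of the MTTP complex, had a difference of -0.17 that did not pass (SE 0.112, limma adjusted p = 0.435), and was named after its value had been seen.

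Among 20 other apolipoprotein and related genes, 1 rose, 0 fell and 19 did not pass, with a median of 0.01. The list also holds genes that share the name without encoding a plasma apolipoprotein, such as the receptor gene APOBR. The share that passed was 5%, beside 7.29% of all genes. An unadjusted limma p under 0.05 was found for 5 of the 20, beside 10072 of all 42924 probe sets. SAA1, an acute-phase apolipoprotein of high density lipoprotein, read 5.70 and 5.41 in 2D and 6.76 and 7.54 in 3D, a 3.02-fold rise (log2 SE 0.258, limma adjusted p = 0.0257). With a 2D mean of 5.56, under the lower quartiles, the size of the rise is poorly known. In replicate 1 it differed by 2.22. Of its other 2 probe sets, 1 passed on replicates 2 and 3 (difference 1.51, limma adjusted p = 0.0371) but read -0.38 in replicate 1, and 1 did not pass (0.61, limma adjusted p = 0.0901), with 0.16 in replicate 1.

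Lipoprotein receptors, lipases and their regulators had 3 of 27 measured genes higher, 0 lower and 24 that did not pass. The share that passed was 11.1%, beside the 7.29% of all genes, and the median difference was 0.09. An unadjusted limma p under 0.05 was found for 12 of the 27, beside 10072 of all 42924 probe sets. DAB2, an endocytic adaptor of lipoprotein receptors such as megalin, read 7.71 and 7.79 in 2D and 8.57 and 8.62 in 3D and rose by 0.85 (SE 0.10, limma adjusted p = 0.0133). VLDLR, the very low density lipoprotein receptor, read 7.95 and 8.29 in 2D and 9.11 and 8.94 in 3D and rose by 0.91 on 1 of its 3 probe sets (SE 0.146, limma adjusted p = 0.0256). LRPAP1, the chaperone of this receptor family, rose by 0.76 (SE 0.153, limma adjusted p = 0.0435), and averaging its 2 probe sets left it short of the threshold (limma adjusted p = 0.066). Replicate 1 gave 0.03 for DAB2, 0.26 for LRPAP1 and, with the opposite sign, -0.96 for VLDLR.

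Of 31 measured transcription factors and regulators of APOB, MTTP or other liver and gut genes, 2 rose, 0 fell and 29 did not pass. The regulators that are not themselves such factors include the coactivator PPARGC1A and the membrane proteins SCAP and INSIG1. The share that passed was 6.45%, beside 7.29% of all genes, and the median difference was 0.05. Beside 10072 of all 42924 probe sets, 11 of the 31 had an unadjusted limma p under 0.05, SCAP, INSIG1 and PPARGC1A among them. NR2F1, an orphan nuclear receptor, read 7.02 and 6.57 in 2D and 8.67 and 8.29 in 3D and rose by 1.69 (SE 0.195, limma adjusted p = 0.0129), with 0.36 on its second probe set and 0.25 in replicate 1. NR1H4, the bile acid receptor, rose from a 2D mean of 5.07, under the lower quartiles, to 6.07 in 3D (SE of the difference 0.177, limma adjusted p = 0.0325). It differed by -0.17 in replicate 1. Its second probe set differed by 0.76 and did not pass (limma adjusted p = 0.0959), with -0.72 in replicate 1. HNF4A, a main activator of APOB and MTTP, named after its value had been seen, had a difference of -0.07 that did not pass (SE 0.120, limma adjusted p = 0.816). CDH17, the gut cadherin among the enterocyte markers, read 8.28 and 8.13 in 2D and 8.98 and 8.91 in 3D, a rise of 0.74 (SE 0.107, limma adjusted p = 0.0199), with 0.12 in replicate 1. The other 4 measured enterocyte markers did not pass. SI (-0.195), ANPEP (-0.165) and ALPI (-0.135) read lower in 3D and LCT (0.07) higher, and the median of all 5 was -0.135. The enterocyte markers averaged 6.87 to 7.02 in 2D and 6.98 to 7.04 in 3D, and the part of such cells or genes in the other differences was not tested.

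Of 10 measured transcripts reported to be bound or edited by APOBEC1, A1CF or RBM47, 1 fell, 0 rose and 9 did not pass. The share that passed was 10%, beside 7.29% of all genes, and the median difference was -0.18. An unadjusted limma p under 0.05 was found for 4 of the 10, beside 10072 of all 42924 probe sets. MYC, whose AU-rich transcript APOBEC1 can bind, read 10.97 and 11.11 in 2D and 9.77 and 9.97 in 3D and fell by 1.17 (SE 0.119, limma adjusted p = 0.0104), with -2.81 in replicate 1. PTGS2, which encodes cyclooxygenase 2 and was named after its values had been seen, read 11.76 and 11.86 in 2D and 9.45 and 10.85 in 3D. Its difference of -1.66 (SE 0.414, limma adjusted p = 0.0731) did not pass, and its 3D arrays lay far apart. EIF4G2, a translation factor whose transcript is edited when APOBEC1 is overproduced, read 14.22 and 14.13 in 2D and 14.06 and 14.05 in 3D (difference -0.12, SE 0.0998, limma adjusted p = 0.549), and was also named after its values had been seen. These arrays report transcript level and carry no measure of editing.

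**Figure D4:**
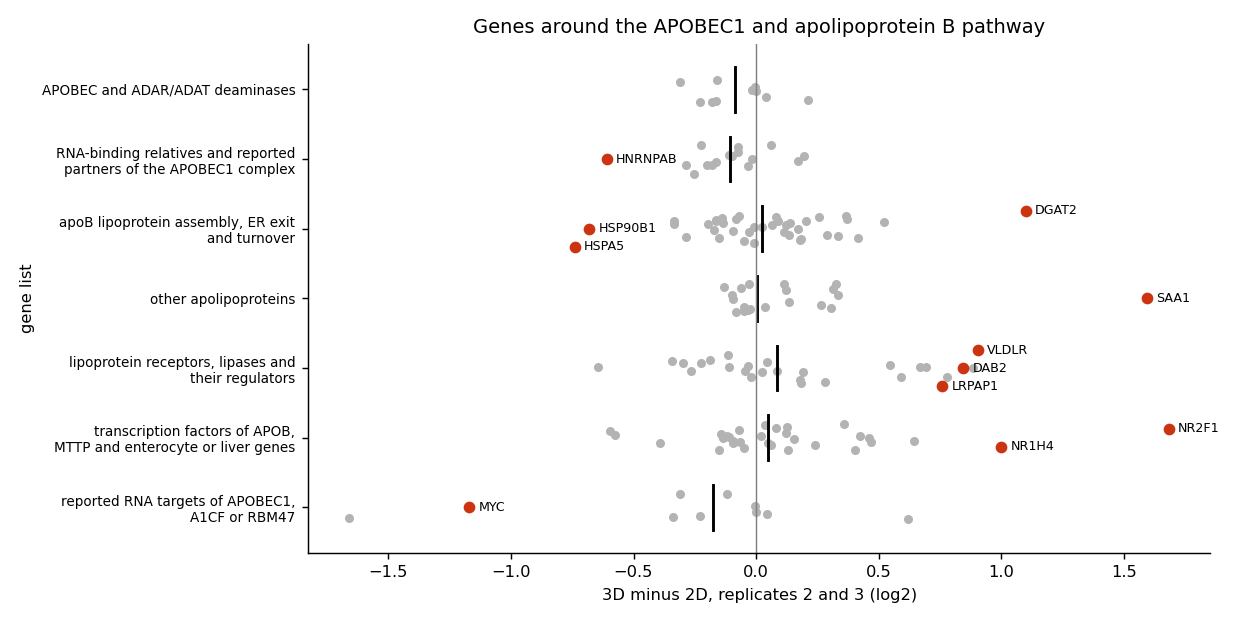
3D minus 2D differences on replicates 2 and 3 (log2, horizontal axis) for the measured genes of the 7 lists (vertical axis), 1 point per gene by its probe set of highest mean, spread vertically for legibility; red points with a symbol passed a limma adjusted p of 0.05, grey points did not, and the black bar is the list's median. The list medians lie between -0.18 and 0.09. The genes that passed number 0 to 3 per list, shares of 0% to 11.1% beside 7.29% of all genes.

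The genes beside the members in the dog genome were also read, with the order taken from the RefSeq annotation of UU_Cfam_GSD_1.0. Of the 24 protein-coding genes that stand within 2 places of a member on either side, 17 had a probe set. Of these 1 passed, beside 7.29% of all genes. It was APBB2, second in line from RBM47 (difference -0.71, SE 0.129, limma adjusted p = 0.0349). GDF3 and RIMKLB, which flank APOBEC1, had differences of 0.13 (SE 0.146, limma adjusted p = 0.687) and 0.41 (SE 0.145, limma adjusted p = 0.162), neither of which passed. GDF3 read 6.99 and 7.37 in 2D and 7.33 and 7.28 in 3D. RIMKLB read 6.20 and 5.92 in 2D and 6.34 and 6.59 in 3D, so that its groups did not overlap, by 0.14. The same held for 51.8% of all probe sets.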

How the data were processed

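For every array the deposited table gives each probe set a log2 value, and the submitters' processing notes name RMA and limma, without saying for which arrays. Versions and the probe set definition were not given in the sources used here, and values were read as log2, the scale that RMA returns. RMA corrects background, normalizes between arrays and summarizes probes, which compresses differences of dim probe sets. The low replicate 1 values are log2 of signals rounded to 1 decimal, unlike those of replicates 2 and 3, and how they were made is not given. Biotinylated cRNA came from 4 µg of total RNA, per the labels' protocols.

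Of 43035 probe sets, 111 controls were left out. The annotation gave 29254 of the rest 1 symbol, 439 several and 13231 none. All 6 member symbols were found in the RefSeq gene table, used for names and gene order. A suffix of s_at marks probe sets whose probes match more than 1 transcript. Percentiles and quartiles place a probe set within its array and do not compare transcript amounts between genes. The arrays' small number limits precision. The labels call the replicates biological but do not describe separate cultures, so the p-values measure the spread between these samples.

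Groups were compared on the 4 arrays of replicates 2 and 3 with lmFit and eBayes of limma 3.58.1 (R 4.3.3), two-sided, Benjamini-Hochberg adjusted over 42924 probe sets at a threshold of 0.05, checked on simulated data. A listed gene is represented by whichever of its probe sets averaged highest across the 6 arrays. That average mixes the 2 scales, so the chosen probe set is not always the brightest on replicates 2 and 3. Among the genes nearest to APOBEC1, chosen in the same way, this held for ENOSF1 and PPP1R3C. The members and lists were chosen with earlier results of these data known. Named were the members, up to 4 passing genes per list or, where 0 passed, the 2 brightest, and the 6 genes nearest to APOBEC1; others are marked as named later. Tables and plots used Python 3.11.15, pandas 2.3.3, numpy 2.4.6 and matplotlib 3.10.9.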

Additional observations from a re-analysis of the deposited data

How the results depend on the processing

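The calls rest on the 4 arrays of replicates 2 and 3 fitted without a block. When limma was run on all 6 arrays with no block, on all 6 arrays with the replicate block, and on replicates 2 and 3 with the replicate block, 0 probe sets passed, so that 0 genes, 0 member probe sets and 0 genes of each list did; 105, 2723 and 8325 probe sets had an unadjusted p under 0.05. With all 6 arrays quantile normalized, 2 probe sets and 1 gene passed, with 0 members and 0 list genes. Without any 1 of the 4 arrays, each of these counts was 0 as well. Within replicates 2 and 3 the block was not taken as a pairing, since same-numbered arrays there did not deviate together (r = 0.00127 over probe sets). That check leaves out the replicate 1 arrays, which correlated at 0.888 with each other and at 0.861 to 0.872 with the others. The APOBEC1 difference was 3.03 in each of the 3 fits of all 6 arrays, 2.57 with each array centred on its median, and 2.55 to 2.61 without 1 array. MTTP turned from 0.09 to -0.98 with all 6 arrays, with or without the block, and -0.80 quantile normalized. As means of a gene's probe sets, SYNCRIP differed by -0.54, and the list of other apolipoproteins had 2 genes that passed, SAA1 among them, in place of 1. With median centring, without dim probe sets and under trend and robust priors, 2713, 3004 and 2433 probe sets passed, and 2 of the member probe sets in each. The 11 named list genes that passed kept their sign in all of their comparisons with an alternative, and lost the call in 90 of 131 of them. Among those that had not passed, A1CF CfaAffx.23905.1.S1_at went from -0.04 to 0.10 without 2D replicate 2 and 0.05 without 3D replicate 3, MTTP to -0.005 without 2D replicate 3, and CDADC1 from -0.23 to 0.07 without 3D replicate 2. Depth has no counterpart here: without detection calls or background signals, the floor of the dim A1CF probe sets is unknown.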
